A study of Mus musculus with 3 samples.

Results

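A set of 59 stretches of the mouse genome, each 1 kb long, held methylated DNA in 2 libraries of colon organoids and little in another library. That library came from organoids that carried an activated Braf oncogene and grew in Base medium. The set is 59 of 43389 such tiles that were covered in the other 2 libraries, or 0.136%. In all there were 2462738 tiles on chromosomes 1 to 19. The assay was MBD-seq: methylated DNA fragments are captured with the methyl-CpG-binding domain of a protein and sequenced. A tile is 5 consecutive bins of 200 bp, and its coverage is the mean of the authors' normalised values, taken off the log2 scale, with the lowest value of the library subtracted. Tiles were selected on their coverage, which had to be at least 0.5 in both full-medium libraries and at most 0.1 in the Base medium library. Every library was used in that choice, so the coverages below describe the chosen tiles and were not tested.

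The 3 libraries came from organoids of the proximal colon of male mice about 40 days old, which were heterozygous (Braf+/LSL) for a Braf V600E allele that stays off until Cre recombinase acts on it. In the Braf Base and the Braf full medium libraries a lentivirus had delivered Cre. The EV organoids, the control, had received the empty lentiviral backbone. Culture lasted 5 months in each case, with a last 3 weeks of growth either in Base medium, without the niche factors of intestinal stem cells, or in full medium, which supplies Wnt3a, R-spondin, Noggin and EGF. The Braf Base organoids had been selected for growth without those factors, and both other libraries stayed in full medium. Each group is 1 library, so differences could not be set against replicates, and p-values are left out. Selection, medium and the particular culture cannot be told apart from one another. The labels give no number of mice or cultures per library, and a table of methylation does not show whether the allele was recombined or which cell types were present.

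Sequencing depth and background differed between libraries. The Braf Base library held an estimated 5985362 reads, the Braf full medium library 8648828 and the EV library 5041726. No read touched 83.0% of the bins in Braf Base, 43.3% in Braf full medium and 87.2% in EV. Coverage in tiles with little signal averaged 0.0101 in Braf Base, 0.0474 in Braf full medium and 0.0116 in EV. A tile with 3 reads has a coverage of 0.0551 in Braf Base, 0.0711 in Braf full medium and 0.0748 in EV. Intervals below are exact 95% Clopper-Pearson intervals on estimated reads or on counts of tiles. They cover counting error only, and they compare libraries, not conditions. The tiles were chosen on the same counts that give the intervals of coverage ratios, and those intervals make no allowance for that choice.

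In mammals, DNA is methylated mainly at the cytosine of CpG, a C followed by a G, and a maintenance methyltransferase copies the mark to the new strand when DNA replicates. Stretches rich in CpG, called CpG islands, mark many promoters and are mostly unmethylated in healthy tissue. In colorectal tumours with an activated BRAF, many such islands are methylated, a pattern known as the CpG island methylator phenotype. A methyl-CpG-binding domain captures a fragment better the more methylated CpG it holds. Coverage therefore falls both where methylation is lost and where there is little CpG to begin with.

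Of the 59 tiles, 6 overlapped an annotated promoter window, taken as 250 bases before to 50 bases after a transcript start. Their upstream sequences are shown because CpG is what the assay reads, and these promoters range from CpG-poor to CpG-dense. They are RefSeq sequences of build mm10 (GRCm38.p6), 250 bases each, written 5′ to 3′ on the strand of the gene, with every CpG in capitals. Dmrta1 lies on the plus strand at chr4:89687948-89688197. On the minus strand lie Syncrip at chr9:88482398-88482647, Uggt2 at chr14:119099435-119099684, Htr6 at chr4:139074790-139075039, Th at chr7:142899996-142900245 and Igf2 at chr7:142666817-142667066.
Dmrta1: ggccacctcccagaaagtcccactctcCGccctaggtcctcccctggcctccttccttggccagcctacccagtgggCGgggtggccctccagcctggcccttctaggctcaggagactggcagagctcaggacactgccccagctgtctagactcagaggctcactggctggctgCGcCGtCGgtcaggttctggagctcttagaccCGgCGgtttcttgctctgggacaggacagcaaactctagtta
Syncrip: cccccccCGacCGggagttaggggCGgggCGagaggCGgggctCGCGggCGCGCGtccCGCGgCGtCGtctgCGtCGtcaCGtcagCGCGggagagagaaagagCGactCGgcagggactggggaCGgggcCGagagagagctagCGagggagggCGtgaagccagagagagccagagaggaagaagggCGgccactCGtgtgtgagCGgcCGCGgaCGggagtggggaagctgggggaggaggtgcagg
Uggt2: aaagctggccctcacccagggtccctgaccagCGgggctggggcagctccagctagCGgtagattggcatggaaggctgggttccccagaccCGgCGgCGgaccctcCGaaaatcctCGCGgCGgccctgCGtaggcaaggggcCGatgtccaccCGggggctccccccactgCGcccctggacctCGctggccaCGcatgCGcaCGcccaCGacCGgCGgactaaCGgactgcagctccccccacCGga
Htr6: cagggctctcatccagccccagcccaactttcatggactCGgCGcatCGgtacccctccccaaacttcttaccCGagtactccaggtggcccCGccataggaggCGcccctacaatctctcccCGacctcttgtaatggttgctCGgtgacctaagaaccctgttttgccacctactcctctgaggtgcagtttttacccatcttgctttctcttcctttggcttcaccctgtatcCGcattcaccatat
Th: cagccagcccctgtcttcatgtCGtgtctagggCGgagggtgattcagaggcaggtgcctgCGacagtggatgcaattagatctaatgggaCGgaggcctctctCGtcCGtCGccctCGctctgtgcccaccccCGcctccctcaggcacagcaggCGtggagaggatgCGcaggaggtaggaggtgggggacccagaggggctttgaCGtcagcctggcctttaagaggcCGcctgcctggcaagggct
Igf2: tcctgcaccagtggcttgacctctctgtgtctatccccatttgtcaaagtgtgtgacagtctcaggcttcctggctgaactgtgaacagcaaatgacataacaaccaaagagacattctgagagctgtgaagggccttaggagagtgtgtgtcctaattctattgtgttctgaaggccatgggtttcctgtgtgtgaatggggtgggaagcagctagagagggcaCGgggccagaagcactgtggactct

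In these 250 bases CpG occurred 31 times upstream of Syncrip, 22 times upstream of Uggt2, 13 times upstream of Th, 9 times upstream of Htr6, 7 times upstream of Dmrta1 and 1 time upstream of Igf2. The selected tile contained all 250 printed bases for Syncrip and Uggt2, 245 for Th, 211 for Htr6, 197 for Dmrta1 and 66 for Igf2. Over the whole window of 300 bases the 6 promoters held 2 to 36 CpG with a median of 14. The median was 14 in 1123 promoter windows overlapping tiles that kept a coverage of at least 0.5 in Braf Base, and 7 in 31396 windows in all. The chosen promoters thus held about as many CpG as the promoters that stayed covered.

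Across all 59 tiles, coverage in Braf Base ran from 0 to 0.0963 with a median of 0.0667. In Braf full medium it ran from 0.510 to 2.17 with a median of 0.627, and in EV from 0.502 to 2.90 with a median of 0.813. By the rule the libraries do not overlap, and all 59 tiles are lowest in Braf Base. The median ratio of Braf Base to Braf full medium was 0.0972, against 0.897 over all 43389 covered tiles. The median ratio of Braf Base to EV was 0.0753, against 0.818 over the covered tiles. The upper end of a tile's interval reached at most 0.477 for the ratio to Braf full medium and 0.478 for the ratio to EV. The rule fixed low ratios in advance, so neither the ratios nor their intervals test whether coverage was lost. Estimated reads per tile were 0 to 5.24 in Braf Base, 21.5 to 91.4 in Braf full medium and 20.1 to 116 in EV.

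**Figure D1:**
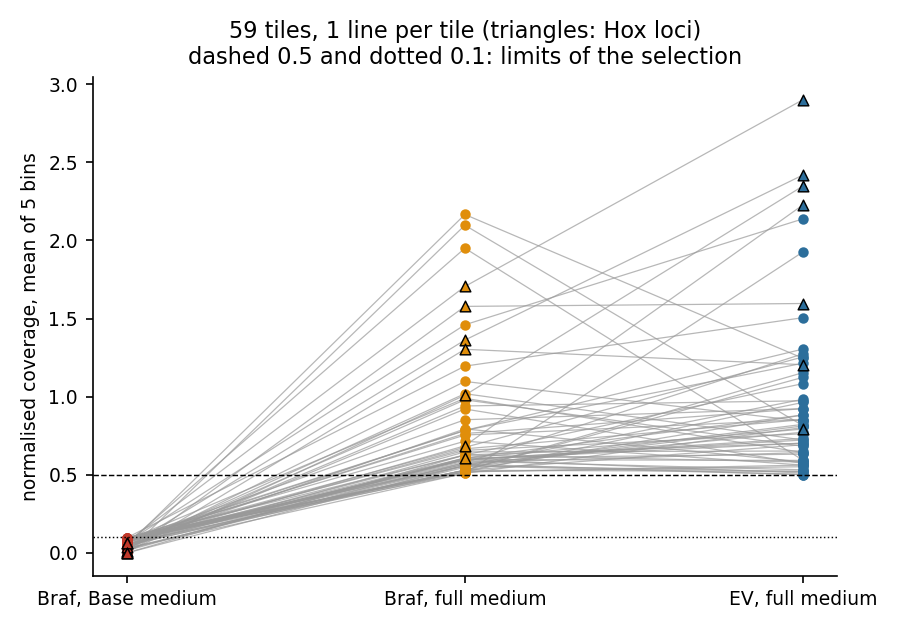
Normalised coverage of the 59 tiles in the Braf Base, Braf full medium and EV libraries, with 1 line per tile and triangles for the 7 tiles at Hox loci; dashed and dotted lines mark the limits of 0.5 and 0.1 used in the selection. Braf Base values lie between 0 and 0.0963, and most tiles lie between 0.5 and 1 in the full-medium libraries.

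Most of the tiles were modestly covered to begin with. The lower of the Braf full medium and EV coverages was under 1 in 51 of the 59 tiles, or 86.4%, against 40.5% of all covered tiles. Among covered tiles with a lower value of 0.5 to 0.6, 30 of 4933 were selected, or 0.608%. With a lower value of 1 or more, 8 of 25827 were selected, or 0.0310%. These 8 are 3 tiles in Hoxb3, 2 at Hoxb2, and 1 each at Dmrta1, Syncrip and near 1810055G02Rik.

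The limits of the rule cut through a continuous range. The highest Braf Base coverage among the selected tiles was 0.0963, in 5 tiles, and the lowest among covered tiles left out was 0.104, in 10 tiles. A further 97 covered tiles lay between 0.1 and 0.15 in Braf Base. Just outside the other limits, 76 tiles had 0.4 to 0.5 in Braf full medium and 18 had 0.4 to 0.5 in EV. With the libraries scaled to equal totals, 16 of the 59 tiles stayed within the rule, among them all 5 HoxB tiles and the Dmrta1, Htr6 and Uggt2 tiles. Both Hoxd3 tiles and the Syncrip, Th and Igf2 tiles did not stay. That scaling multiplied coverage by 0.614 in Braf full medium and by 1.14 in Braf Base. The Hoxd3, Th and Igf2 tiles thereby fell below 0.5 in Braf full medium, and the Syncrip tile rose above 0.1 in Braf Base. With the libraries scaled to equal medians of covered tiles, all 59 tiles stayed and 7 others joined them.

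The signal that was low or absent in Braf Base formed narrow peaks in the other libraries. Only 5 of the 59 tiles had no overlap in Braf Base. The median coverage of 0.0667 in Braf Base lay above its mean of 0.0101 in tiles with little signal. The 59 tiles make 56 separate runs, of which 54 are single tiles, 1 is a pair in Hoxd3 and 1 is a run of 3 in Hoxb3. In the best covered bin of each tile the median coverage was 0.111 in Braf Base, 1.32 in Braf full medium and 1.71 in EV. The 111 tiles that border the runs had median coverages of 0.00741 in Braf Base, 0.0686 in Braf full medium and 0.0100 in EV. A covered neighbour was absent for 53 of the 59 tiles, or 89.8%, against 46.9% of the 38531 covered tiles that kept at least 0.5 in Braf Base. These sets were not matched for coverage. The lower full-medium value was under 1 in 86.4% of the selected and 33.3% of the kept tiles. The nearest such kept tile was a median of 26 kb away, with a range of 1 to 375 kb, and 20 of the 59 had one within 10 kb.

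**Figure D2:**
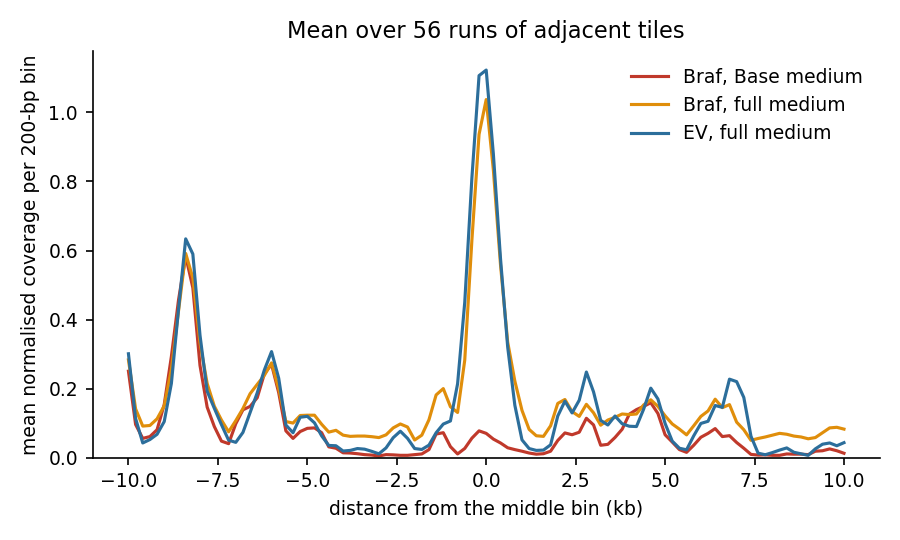
Mean normalised coverage per 200-bp bin, over 56 runs of selected tiles, against distance in kb from the middle bin, with 1 line each for Braf Base, Braf full medium and EV. At the middle bin the means are 0.0708 in Braf Base, 1.04 in Braf full medium and 1.12 in EV, and at 1000 bp to the right they are 0.0192, 0.137 and 0.0520 in the same libraries.

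Hox genes encode homeodomain transcription factors that set position along the body axis, and the gut keeps a regional Hox code in the adult. They lie in 4 clusters, and 7 of the 59 tiles lie in 2 of them, at Hoxb3, Hoxb2 and Hoxd3. The HoxB cluster on chromosome 11 held 13 covered tiles, of which 5 were selected and 8 kept at least 0.5 in Braf Base. The HoxD cluster on chromosome 2 held 8, of which 2 were selected and 4 kept. The HoxA cluster on chromosome 6 held 15, of which none was selected and 14 were kept, and the HoxC cluster on chromosome 15 held no covered tile.

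Hoxb3 spans chr11:96307101-96347930, and its 3 selected tiles cover chr11:96340001-96343000 inside the gene. The tile starting at 96340001 had a coverage of 0.00741 in Braf Base, from a single overlap with a bin, 1.01 in Braf full medium and 2.35 in EV. At 96341001 the next tile had 0.0370 in Braf Base, 1.36 in Braf full medium and 2.42 in EV. The last tile of the run, at 96342001, had 0.0667 in Braf Base, 1.71 in Braf full medium and 2.90 in EV. In all 3 tiles EV was highest and Braf Base lowest, and Braf full medium lay between them. The ratio of Braf Base to Braf full medium was 0.0073 in the first tile (95% interval up to 0.0695), 0.0272 in the second (0.00322 to 0.103) and 0.0391 in the last (0.0114 to 0.115).

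Covered tiles on both sides of this run kept their coverage in Braf Base. On the low side the tile starting at 96333001 had 4.42 in Braf Base, 3.57 in Braf full medium and 3.28 in EV. On the high side the tile starting at 96345001 had 4.02 in Braf Base, 2.56 in Braf full medium and 2.42 in EV. The tile nearest to the run, starting at 96344001, had 2.10 in Braf Base, 1.77 in Braf full medium and 3.02 in EV, and that at 96346001 had 2.82, 2.35 and 3.34 in the same libraries. These flanking tiles were all higher in Braf Base than in Braf full medium, and those at 96344001 and 96346001 were lower in Braf Base than in EV.

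Hoxb2 spans chr11:96351632-96354020 and overlaps the long non-coding RNA gene Hoxb3os, which runs from 96343034 to 96353394. The tile starting at 96352001 had 0 in Braf Base, 1.30 in Braf full medium and 1.20 in EV. The ratio of Braf Base to Braf full medium was thus 0 with a 95% interval up to 0.0538, and the interval of the ratio to EV reached 0.0589. The tile starting at 96354001, at the high end of the gene, had 0 in Braf Base, 1.58 in Braf full medium and 1.60 in EV, with intervals of the ratio up to 0.0439 against Braf full medium and 0.0437 against EV. Both tiles were empty in Braf Base and about equally covered in the other libraries. Between them the tile starting at 96353001 had 0 in Braf Base, 2.57 in Braf full medium and 0.301 in EV, which missed the limit for EV. All 3 lie in a stretch of 4800 bp without an overlap in Braf Base, where Braf full medium had 581 overlaps with bins and EV 356.

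Hoxd3 spans chr2:74711993-74748271. Its tile starting at 74732001 had 0.0667 in Braf Base, 0.686 in Braf full medium and 2.23 in EV. The next tile, starting at 74733001, had 0.0148 in Braf Base, 0.608 in Braf full medium and 0.793 in EV. In the first of these Braf full medium was itself lower than EV, with a log2 ratio of -1.70. Neither tile stayed within the rule when the libraries were scaled to equal totals. A tile starting at 74725001, where Hoxd4 lies within the Hoxd3 span, fell just outside the rule. It had 0.111 in Braf Base, 0.627 in Braf full medium and 1.24 in EV. Farther along, the tile starting at 74740001 had 0.245 in Braf Base, 0.314 in Braf full medium and 4.42 in EV, low in both Braf libraries. Between the low tiles, the one starting at 74727001, also within Hoxd4, kept 4.43 in Braf Base, 3.63 in Braf full medium and 4.45 in EV.

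**Figure D3:**
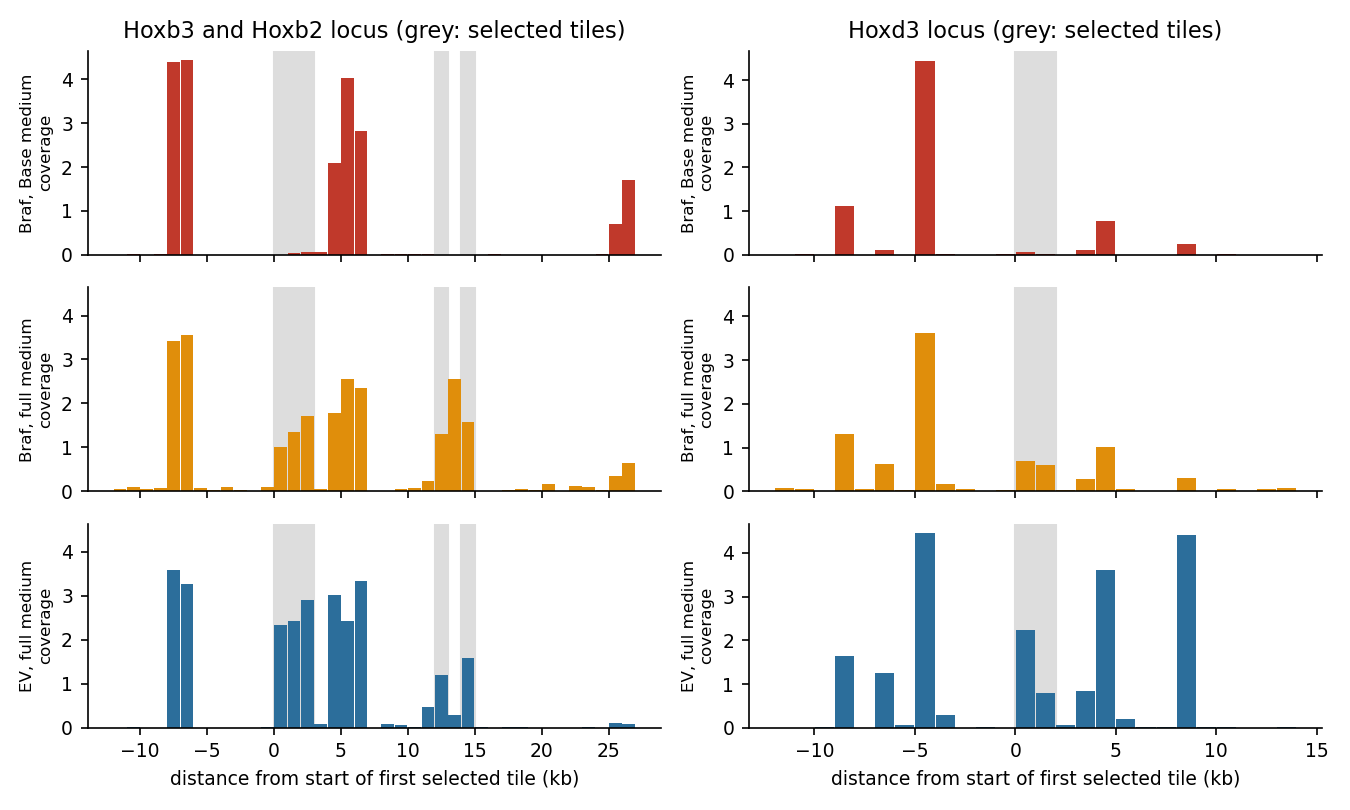
Normalised coverage of consecutive 1-kb tiles around the selected tiles of the HoxB and HoxD clusters, against distance in kb from the first selected tile, with rows for Braf Base, Braf full medium and EV; grey bands mark the selected tiles. Braf Base bars are at or near 0 at Hoxb3, Hoxb2 and Hoxd3, beside tiles that keep coverages above 4 in Braf Base, at 96333001, 96345001 and 74727001.

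Dmrta1 encodes a DM-domain transcription factor of the doublesex family. Its tile, chr4:89688001-89689000, contains the transcript start and had 0.0445 in Braf Base, 2.17 in Braf full medium and 1.24 in EV. Braf full medium was thus the highest of the 3, with a ratio of Braf Base to Braf full medium of 0.0205 (0.00203 to 0.0634). The peak sat just downstream of the printed sequence. In the bin about 400 bp past the start, coverage was 0.0741 in Braf Base, 4.26 in Braf full medium and 2.41 in EV.

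Syncrip encodes an RNA-binding protein of the hnRNP family and has the promoter with the most CpG of the 6. Its tile, chr9:88482001-88483000, had 0.0963 in Braf Base, 1.20 in Braf full medium and 1.51 in EV, a ratio of Braf Base to Braf full medium of 0.0806 (0.0241 to 0.193). Its Braf Base value is among the 5 at the upper limit of the rule. The bin about 200 bp past the start had 0.185 in Braf Base, 2.20 in Braf full medium and 3.16 in EV. The bin holding the start had 0.185, 2.25 and 2.76 in the same libraries. About 200 bp upstream, within the printed sequence, coverage was 0.111, 1.18 and 1.41. CpG was not counted in the bin past the start.

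Uggt2 encodes a glucosyltransferase of the glycoprotein folding check in the endoplasmic reticulum. Its tile, chr14:119099001-119100000, had 0.0593 in Braf Base, 1.95 in Braf full medium and 0.592 in EV. EV was thus close to the lower limit of the rule, and Braf full medium was higher than EV by 1.72 on the log2 scale. The ratio of Braf Base to Braf full medium was 0.0304 (0.00573 to 0.0859). Background coverage around this gene was also lower in Braf Base, as described for chromosome 14 below.

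Htr6 encodes a serotonin receptor, and Th encodes tyrosine hydroxylase, the rate-limiting enzyme of catecholamine synthesis. The Htr6 tile, chr4:139074001-139075000, had 0.0296 in Braf Base, 0.941 in Braf full medium and 0.974 in EV. The Th tile, chr7:142900001-142901000, had 0.0519 in Braf Base, 0.598 in Braf full medium and 0.733 in EV. At both, Braf full medium and EV differed little and Braf Base stood far below. The Htr6 signal was highest past the start, at 1.67 in Braf full medium about 400 bp past it. In EV it reached 2.46 about 600 bp past the start. The ratio of Braf Base to EV was 0.0304 (0.00442 to 0.146) at Htr6 and 0.0708 (0.0149 to 0.246) at Th.

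Igf2, an imprinted fetal growth factor gene, is expressed mainly from the paternal copy. The tile chr7:142667001-142668000 lies 185 bp from its start, inside the antisense RNA gene Igf2os. It had 0.0296 in Braf Base, 0.549 in Braf full medium and 0.813 in EV. The signal lay about 800 bp upstream of the printed Igf2 start, in a bin with 0.0741 in Braf Base, 0.931 in Braf full medium and 1.61 in EV. A kept tile lies 2 kb away, with 1.26 in Braf Base, 1.19 in Braf full medium and 1.25 in EV. MBD-seq counts do not separate the parental copies.

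At the remaining gene ends, 1 tile covers the adjoining genes Ccr10, a chemokine receptor, and Cntnap1, an axonal adhesion protein. It had 0.0815 in Braf Base, 0.990 in Braf full medium and 0.642 in EV. With both Hoxb2 tiles and the promoter tiles, 9 of the 59 lay within 1 kb of an end of a protein-coding gene, or 15.3% (7.22 to 27.0). That share was 8.28% of the kept tiles and 4.41% of all tiles. Promoter windows were overlapped by 6 of 58 tiles, or 10.3% (3.89 to 21.2), against 2.80% of kept tiles and 1.48% of all tiles. The tile on chromosome 18 is not in this count, which uses promoter windows of the other chromosomes. The interval for gene ends contains the share of the kept tiles, and the interval for promoter windows lies above it. The promoter count rests on only 6 tiles, and the kept tiles were not matched for coverage. At Dmrta1, Syncrip, Htr6 and Igf2 the best covered bin, by Braf full medium and EV together, lay outside the promoter window. At Syncrip that bin had 2.20 in Braf full medium and 3.16 in EV, and the bin holding the start had 2.25 and 2.76. Adjacent tiles share a gene and are not independent.

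Inside genes, 33 of the 59 tiles, or 55.9% (42.4 to 68.8), lay in the span of a protein-coding gene, against 47.8% of the kept tiles and 40.6% of all tiles. Of these, 15 were more than 10 kb from either end of the gene. Outside every annotated gene lay 16 tiles, or 27.1% (16.4 to 40.3), against 43.8% of the kept tiles. The 30 protein-coding genes that contained a selected tile had a median length of 60820 bp, and 12 of them, or 40.0%, were longer than 100 kb. Among 7575 genes containing a kept tile the median was 35590 bp and 23.4% were longer than 100 kb. Long genes contain more tiles, and the members were not matched for that. Whether a tile inside a gene is exonic or intronic is not given by the gene table used.

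Among the tiles inside genes, that of Auts2, a regulator of neuronal development, had 0.0963 in Braf Base, 0.627 in Braf full medium and 1.08 in EV. Rims2, a scaffold of synaptic vesicle release, had 0.0889 in Braf Base, 0.568 in Braf full medium and 0.773 in EV. Nav2, a cytoskeletal protein of axon growth, had 0.0519 in Braf Base, 0.794 in Braf full medium and 0.582 in EV. All 3 lie close to the lower limits of the rule in at least 1 full-medium library. They were picked after their values were seen and stand for no class of genes. Shank1, a scaffold of the postsynaptic density, had 0.0519 in Braf Base, 0.647 in Braf full medium and 0.653 in EV. Camk2b, a calcium-dependent kinase, was better covered, with 0.0815 in Braf Base, 0.784 in Braf full medium and 1.31 in EV. Tnrc6c, a partner of Argonaute in microRNA silencing, had 0.0370 in Braf Base, 1.02 in Braf full medium and 0.723 in EV.

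Muc3, which encodes a membrane mucin of the intestinal epithelium, is a gene of the gut itself. Its tile lies within the gene, with 0.0741 in Braf Base, 0.598 in Braf full medium and 0.512 in EV. The tile in Arhgap8 had 0.0815 in Braf Base, 0.510 in Braf full medium and 1.93 in EV. The log2 ratio of Braf full medium to EV at Arhgap8 was -1.92, the lowest of the 59.

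Of the 26 tiles outside protein-coding genes, the median distance to the nearest such gene was 24.6 kb, and 5 were more than 100 kb away. A tile 3271 bp from Uts2r, the urotensin receptor gene, had 0 in Braf Base, 2.10 in Braf full medium and 0.813 in EV, with intervals of the ratio up to 0.0332 against Braf full medium and 0.0871 against EV. It lies at chr11:121156001-121157000 in a stretch of 4000 bp with no overlap in Braf Base, 281 in Braf full medium and 123 in EV. A tile 30638 bp from Nog, which encodes the BMP antagonist Noggin, had 0 in Braf Base, 0.627 in Braf full medium and 0.703 in EV. At the Nog tile the intervals of the ratio reached 0.118 against Braf full medium and 0.104 against EV. Both tiles were empty in Braf Base, and the one near Uts2r was better covered in both other libraries.

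A tile in the long non-coding gene Gm39484, near Nptx1, a neuronal pentraxin, had 0 in Braf Base, 0.559 in Braf full medium and 0.502 in EV. The intervals of its ratio reached 0.129 against Braf full medium and 0.149 against EV. In Gm36787, near 1810055G02Rik, a tile at chr19:3719001-3720000 had 0.0667 in Braf Base, 1.46 in Braf full medium and 2.14 in EV. A tile near Stk32a, a kinase gene, had 0.0889 in Braf Base, 0.784 in Braf full medium and 1.21 in EV. A tile in Gm46298, near Cep112, which encodes a centrosomal protein, had 0.0519 in Braf Base, 0.608 in Braf full medium and 0.883 in EV. Of these 4, the tile in Gm36787 was the best covered in the full-medium libraries.

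The tile chr13:23506001-23507000 contains a tRNA gene for tryptophan, n-TWcca4, and had 0.0296 in Braf Base, 0.921 in Braf full medium and 0.572 in EV. Transfer RNA genes exist in near-identical copies, as do the gene families at the tiles near Mup12 and Pramel44 and in Gm3993. The placement of reads that match several copies is not described in the sources used here, so these 4 tiles are uncertain.

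The name "lost only in Base medium" holds for the limits of the rule and not for every tile's course through the 3 libraries. Of the 59 tiles, 19 were higher in Braf full medium than in EV, or 32.2%, against 30.1% of the covered tiles. The median log2 ratio of Braf full medium to EV was -0.22, against -0.13. In 6 tiles Braf full medium was already lower than EV by at least 1 on the log2 scale, at Hoxd3, Hoxb3, Arhgap8, Vstm2l and near Myl10 and Pramel44. That is 10.2%, against 1.46% of the covered tiles. Braf full medium was higher than EV by at least 1 in 2 tiles, at Uggt2 and near Uts2r, which is 3.39% against 0.906% of the covered tiles. Shares beyond 1 were thus larger in both directions. The rule used both libraries, and the sets were not matched for coverage: the lower value was under 1 in 86.4% of the selected and 40.5% of the covered tiles. The tiles with the opposite pattern were fewer: 15 of 40165, or 0.0373%, were covered in Braf Base and EV and at most 0.1 in Braf full medium, where background was higher. A further 128 of 51814 tiles covered in EV, or 0.247%, were at most 0.1 in both Braf libraries.

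Selected tiles were unevenly spread over chromosomes. Chromosome 11 held 12 of them, or 0.537% of its 2235 covered tiles, against 0.136% over all chromosomes. Of these, 5 lie in the HoxB cluster and 7 elsewhere, and all 5 tiles of the whole set without any overlap in Braf Base are on this chromosome. Local background is the mean coverage of low tiles in the same 1-Mb block, relative to the library's own average. Beside the tiles of chromosome 11 its log2 ratio of Braf Base to EV ran from -0.03 to 0.29. The ratio of Braf Base to Braf full medium ran there from -0.25, at the tile near Nog, to 0.73, at the tile near Nptx1. Chromosomes 10 and 16 held no selected tile among 2473 and 1609 covered ones. At the share over all chromosomes 3.36 and 2.19 would be expected there, so this absence is not a result about either chromosome.

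Chromosome 14 held 6, or 0.302% of its 1986 covered tiles, and its background differed. The log2 ratio of local background of Braf Base to EV was -1.17 to -0.88 beside these 6 and -0.78 to 0.29 beside the other 53, where its median was -0.01. The ratio of Braf Base to Braf full medium was -1.19 to -0.42 beside the 6. Beside the other 53 that ratio was -1.21, near Pramel44, to 0.73, with a median of 0.15. By that ratio a lower Braf Base background was not confined to chromosome 14. Background in Braf full medium relative to EV was -0.45 to 0.26 beside the 6. The tiles are those at Uggt2, Hs6st3 and Erich6b and those near Med4, Rbm26 and Ndfip2. The tile 2049 bp from Med4, a Mediator subunit gene, had 0.0222 in Braf Base, 1.10 in Braf full medium and 0.843 in EV. The tile nearest to Ndfip2, in the non-coding gene 9330188P03Rik, had 0.0370 in Braf Base, 0.980 in Braf full medium and 0.683 in EV.

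The ratio of Braf Base to EV in these 6 was 0.0264 to 0.162, and 0.0504 to 0.367 once divided by the ratio of local backgrounds. When local background relative to EV was divided out before the rule was applied, 42 of the 59 tiles stayed, among them all 7 at Hox loci and 2 of the 6 on chromosome 14, near Med4 and Ndfip2. The Uggt2 tile did not stay. Beyond this division, the part of the lower background in these 6 tiles was not tested.

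**Figure D4:**
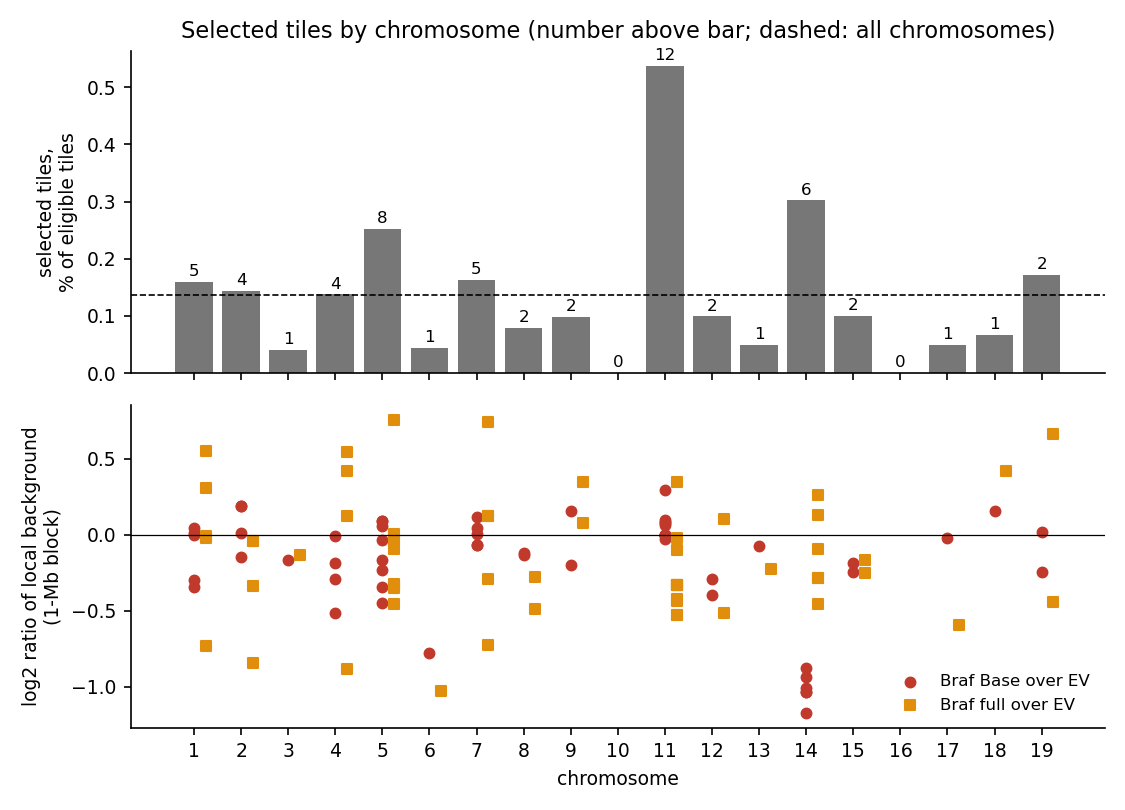
Upper panel, selected tiles as a percentage of covered tiles on each chromosome, with their number above the bar and a dashed line at 0.136%. Lower panel, log2 ratio of local background in the 1-Mb block of each selected tile, for Braf Base over EV (circles) and Braf full medium over EV (squares); the 6 circles of chromosome 14 lie between -1.17 and -0.88.

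In 15 gene lists chosen for this tissue and oncogene, few genes held a selected tile. A tile in the gene or within 1 kb of it was found for 32 of 20661 protein-coding genes, or 0.155%, and for 0.384% of the 8344 genes with a covered tile. Hox genes had 3 of 39, or 7.69%, namely Hoxb2, Hoxb3 and Hoxd3, with 9 of the 39 holding a covered tile. Imprinted genes had 1 of 20 with Igf2, and other developmental transcription factors 1 of 93 with Dmrta1. The Hox count rests on 2 clusters, or on HoxB alone with libraries scaled to equal totals, and earlier results of these data were known when the list was made.

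The other 12 lists held none. They had covered tiles to lose at 16 of 30 intestinal transcription factors, 11 of 26 Wnt antagonists, 20 of 26 tumour suppressor and senescence genes and 9 of 24 MAPK feedback and output genes. The same holds for 11 of 18 intestinal stem cell genes, 6 of 26 colonic differentiation genes, 20 of 24 germline genes and 3 of 28 housekeeping genes. Among marker lists, covered tiles lay at 2 of 16 colon epithelium genes, 4 of 16 fibroblast and smooth muscle genes, 3 of 16 immune genes and 10 of 15 endothelial and neural genes. Read against the overall share of 0.384%, a count of 0 is not a result about any of these lists.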

How the data were processed

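MBD-seq libraries of 3 organoid groups, 1 each, were read from the authors' deposited table of log2 values, which holds 12313737 bins of 200 bp from chromosomes 1 to 19. DNA input was 100 to 200 ng, in fragments of 200 to 400 bp read as single ends of 50 bp, per the labels' protocols. The submitters' processing notes name Bowtie2 and mm10. What was done from reads to bins is not stated there. The antilog of each value gave a floor of 0.0153 plus whole steps of 0.0370 (Braf Base), 0.0490 (Braf full medium) or 0.0502 (EV). The number of steps was taken as read overlaps, and coverage as overlaps times the step. Totals were 14850571, 20914446 and 12530155 overlaps in the same order. Reads were estimated from the mean number of bins per lone read, 2.48, 2.42 and 2.49, so intervals are approximate.

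Genes and promoters come from RefSeq tables of GRCm38.p6, the assembly of mm10. Promoter windows of chromosome 18 were not used here. The members and all gene lists were chosen with earlier results of these data known. Named are the 12 largest runs, the 15 best covered tiles under 3 reads in Braf Base, tiles within 1 kb of a gene end and list genes with a tile; others were chosen after their values were seen. The code that applies the rule was tested on simulated data with known answers, which is no test of the selected tiles. Alternatives changed scaling, limits, grid, bin size and local background. Python 3.11.15, numpy 2.4.6, pandas 2.3.3 and scipy 1.17.1 were used.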

Additional observations from a re-analysis of the deposited data

How the results depend on the processing

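The count of 59 tiles depends on the limits. With libraries scaled to equal totals, which shifts log2 coverage by 0.19 in Braf Base and by -0.70 in Braf full medium, 16 tiles (0.0499% of those covered, 14 runs, 37.5% at a gene end) remained, all among the 59. A limit of 0.05 in Braf Base gave 18 tiles (0.0415%, 17 runs, 27.8% at a gene end). A limit of 0.2 gave 289 (0.666%, 282 runs, 8.65% at an end). No overlap gave 5 (0.0115%, 5 runs, 40% in a gene body, 40% at an end). A minimum of 1 in Braf full medium and EV gave 8 (0.0310%, 6 runs, 87.5% in a gene body, 50% at an end). A minimum of 0.3 gave 600 (1.01%, 585 runs, 10.2% at an end). Single bins of 200 bp gave 630 (0.366%, 441 runs, 11.1% at an end). The larger sets thus had gene-end shares nearer to the 8.28% of the kept tiles. Dividing out local background relative to EV, chosen after seeing the data, gave 113 (0.259%, 107 runs), 42 of them among the 59. Equal medians gave 66, a shifted grid 66, subtracted library background 49, and leaving out chromosome 14 gave 53. Division by local mean background gave 47, of which 23 were among the 59 and 24 were not; all 7 Hox tiles and Dmrta1 stayed, and Syncrip, Uggt2, Htr6, Th and Igf2 did not. These last 2 settings were also chosen after seeing the data. Over all settings, 40 alternative values were counted as the same and 30 as moved. The criterion was staying within 1.5 times of the main count or within its counting interval. Differences in gene position from covered tiles that were not selected were counted as the same without that check. The planned division by a local median could not be run, because that median is 0 in Braf Base and EV. No paired analysis was possible because each group holds 1 library, and leaving out a library removes a group. Depth limits the low end: 23 of the 59 tiles had under 3 estimated reads in Braf Base.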
